A study of Homo sapiens with 6 samples.

Results

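The genes described here write, recruit or read methylation of histone H3 at lysine 9 (H3K9): SETDB1, ATF7IP, TRIM28, MPHOSPH8, EHMT1, EHMT2, SUV39H1, SUV39H2, CBX3 and CBX5. They were taken by name from the gene column of a guide count table, and all 10 were present among 7093 genes. Each was targeted by 10 guides, and all 100 of these guides passed the filter on library counts, with mean library counts between 161.5 and 2084. No member guide had an identifier used for another guide. The counts belong to a pooled knockout screen with CRISPR guides, run in HAP1, an established near-haploid human cell line. The 3 groups had 2 samples each: the guide library, parental HAP1 cells, and HAP1 cells labelled SETD2-mutant, which lack an intact gene for the enzyme that trimethylates H3K36. Both lines were infected at a multiplicity of infection of 0.7, divided into replicates after infection and kept under puromycin for 12 doublings. Replicates of a line therefore share 1 infected population, and a p-value covers at most the spread among these samples.

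The labels name 1 SETD2-mutant genotype and do not say whether it is 1 clone, nor how the library samples were taken. The counts measure how common cells carrying a guide were, not H3K9 methylation or gene expression, so neither the mark nor the identity of the line could be checked against its markers. Guide sequences and cut sites were not used here. In such screens a guide that becomes rarer is read as marking a gene whose loss slowed growth or survival relative to the other cells in the pool.

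H3K9 methylation marks silent chromatin. SETDB1 places the trimethyl mark at retrotransposons and at genes of zinc finger proteins, where the corepressor TRIM28 recruits it through KRAB zinc finger proteins, and ATF7IP is the partner that keeps SETDB1 in the nucleus and stable. MPHOSPH8 is the chromodomain subunit of the HUSH silencing complex, which acts together with SETDB1. EHMT1 (GLP) and EHMT2 (G9a) form a heterodimer that places the mono- and dimethyl marks in euchromatin, SUV39H1 and SUV39H2 place the trimethyl mark at pericentromeric heterochromatin, and CBX3 (HP1 gamma) and CBX5 (HP1 alpha) bind the methylated lysine.

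Total counts ranged from 25082426 to 38428425 per sample. Guides against SETD2 itself stood at a mean log2 change from library of −1.08 and −1.17 (parental) and −0.64 and −0.58 (SETD2-mutant), and SETD2 was enriched between the lines by 0.50 (SE 0.216, adjusted p = 0.00624 by edgeR and RRA, the test defined below), which does not read the genotype. Replicates of the lines differed by more than counting error: chi-square per degree of freedom, near 1 for counting error alone, was 14.1 between the parental and 12.9 between the SETD2-mutant samples, against 1.37 between the library samples. In the comparisons below, a gene was called depleted or enriched when the adjusted p was under 0.05 in edgeR's quasi-likelihood test per guide followed by robust rank aggregation (RRA) of the guides of a gene. Throughout, called and not called refer to this test unless another is named. The tests on gene-level values, limma on gene means and edgeR on counts summed per gene, called many more genes. Of all genes they called 1745 and 1503 depleted and 1042 and 1417 enriched between the lines. In parental cells against library they called 2277 and 2149 depleted and 1825 and 2092 enriched. The numbers in SETD2-mutant cells were 2770 and 2320 depleted and 1815 and 2138 enriched. A call by these tests is thus common among all genes. Further calls by these tests are given beside the members, FAM208A, CBX1 and the pathway genes called by edgeR and RRA in any comparison. For the other pathway genes, results of these tests are not given, and not called refers to edgeR and RRA alone. Effects are mean log2 changes over the 10 guides with the standard error (SE) over guides. Guides of 1 gene share a target and are not replicates of a condition. The RRA p takes them as independent draws and measures how far they rank together among all guides. It does not measure the spread among samples.

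With TMM scaling, SETDB1 and ATF7IP guides became more common in parental cells and stayed near their library level in SETD2-mutant cells, while TRIM28 guides became rarer in parental cells and stayed near their library level in SETD2-mutant cells. How far each line lay from the library depended on the scaling. Scaled on the dummyguide counts, described below, SETDB1 stood at 0.15 in parental and −1.12 in SETD2-mutant cells. ATF7IP stood at 0.44 and −0.66, and TRIM28 at −2.07 and −1.05. On that scale the parental line was the nearer one for SETDB1 and ATF7IP, and the SETD2-mutant line remained the nearer one for TRIM28. Between the lines, SETDB1 and ATF7IP were depleted and TRIM28 was enriched in the SETD2-mutant line, each by about the same size on the log2 scale. The other 7 members were not called between the lines. Thus 2 of 10 members were depleted and 1 was enriched, against 1.28% and 1.03% of all 7090 genes tested. The members were chosen with earlier results of these data known, so these shares do not test for an excess.

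**Figure D1:**
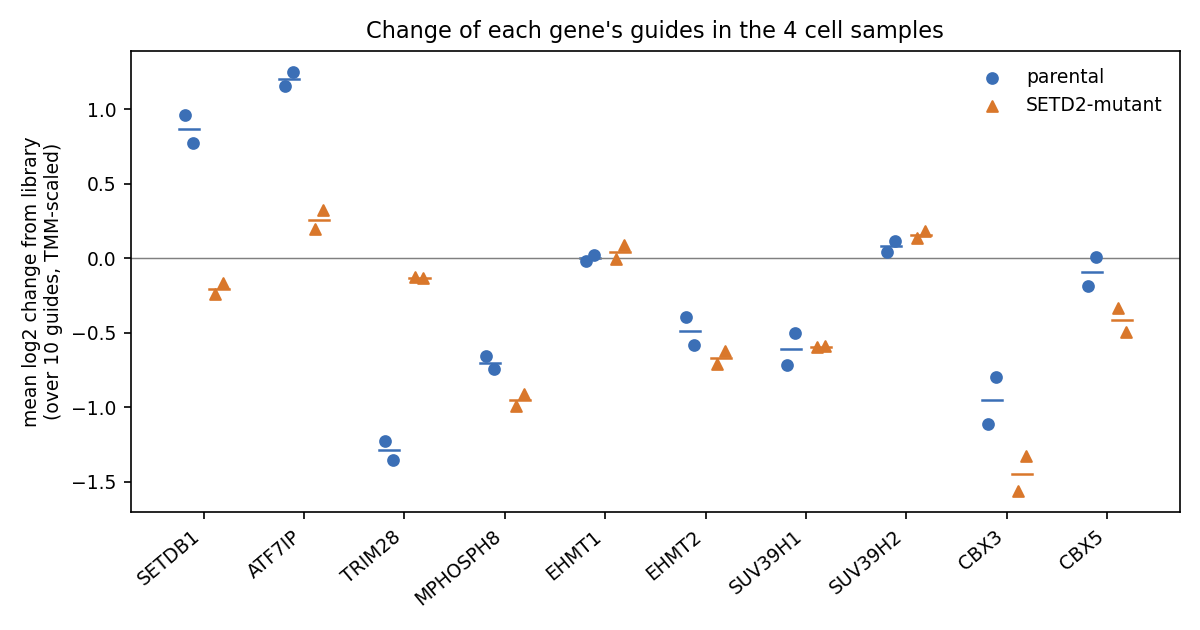
Mean log2 change from library over the 10 guides of each gene (y axis, TMM-scaled log2 CPM) in the 2 parental samples (circles) and the 2 SETD2-mutant samples (triangles), with a bar at the mean of each line. SETDB1 and ATF7IP lie at 0.77 or above in parental samples and at 0.32 or below in SETD2-mutant samples, and TRIM28 lies at −1.35 and −1.23 in parental and at −0.13 in SETD2-mutant samples.

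SETDB1 (chromosome 1, 150926263 to 150964737, GRCh38), the methyltransferase, had a mean of 13.3 and 12.6 CPM (counts scaled to a common library total) per guide in the library samples. It had 26.8 and 27.9 CPM in the parental samples and 11.9 and 12.8 CPM in the SETD2-mutant samples. The parental samples were the high ones, and the 2 lines did not overlap. As mean log2 change from library the values were 0.96 and 0.77 in parental and −0.24 and −0.17 in SETD2-mutant samples. The fitted change was 0.93 (SE 0.259) in parental cells, called enriched with an adjusted p of 0.00314, and −0.20 (SE 0.224) in SETD2-mutant cells, which was not called. Between the lines SETDB1 fell by 1.12 (SE 0.237), with all 10 guides down (adjusted p = 0.00519, edgeR and RRA). Leaving out parental replicate 2 ended the parental call, at a change of 0.96 and an adjusted p of 0.0704.

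The 10 SETDB1 guides differed among themselves. In parental cells 9 of 10 were above their library level, from 0.47 to 2.01. The guide HZD_EPI_06270 was the exception, at −0.87, and its counts were 339 in 1 parental sample and 48 in the other, against 368 and 333 in the library. Between the lines the guides ranged from −2.31 to −0.11, and 6 of 10 were called down by edgeR for single guides, against 12.8% of all 71470 guides down and 11.5% up. The furthest was HZD_EPI_06273, with counts of 704 and 761 in parental and 117 and 125 in SETD2-mutant samples, from 302 and 280 in the library. It was followed by HZD_EPI_06268, with 1284 and 1100 in parental and 231 and 249 in SETD2-mutant samples. At the other end, HZD_EPI_06271 had 761 and 725 counts in parental and 478 and 658 in SETD2-mutant samples, and HZD_EPI_06266 had 800 and 625 against 392 and 549. Raw counts of guides, here and below, are not corrected for the lower total of SETD2-mutant replicate 1.

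ATF7IP (chromosome 12, 14365682 to 14502930), the partner of SETDB1, followed the same course with higher values in both lines. Its guides averaged 12.7 and 12.6 CPM in the library, 30.9 and 32.3 CPM in parental samples and 15.005 and 16.6 CPM in SETD2-mutant samples, so the SETD2-mutant samples lay above the library and far below the parental ones. The log2 changes from library were 1.15 and 1.25 in parental and 0.20 and 0.32 in SETD2-mutant samples. ATF7IP was enriched in parental cells by 1.21 (SE 0.142, all 10 guides above library), with an adjusted p of 4.28e-05 from edgeR and RRA, the change of rank 4 from the top among 7090 genes, where SETDB1 had rank 15. In SETD2-mutant cells it stood at 0.26 (SE 0.177) and was not called. Between the lines it fell by 0.95 (SE 0.243) with 9 of 10 guides down and an adjusted p of 0.000347.

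Of the ATF7IP guides, 6 of 10 were called down between the lines by edgeR and 0 were called up. HZD_EPI_00476 moved furthest, from 1419 and 1529 counts in parental samples to 274 and 352 in SETD2-mutant samples, below its library counts of 599 and 516. HZD_EPI_00472, the next, went from 925 and 913 to 167 and 245. HZD_EPI_00477 was the only guide with a change above 0 between the lines, at 0.36, with 755 and 842 counts in parental and 670 and 1054 in SETD2-mutant samples. In CPM its SETD2-mutant samples (26.7 and 31.2) both lay above its parental samples (19.9 and 25.1). The guide nearest to HZD_EPI_00477, HZD_EPI_00480, stood at −0.40 and its samples overlapped between the lines.

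TRIM28 (chromosome 19, 58544064 to 58550715), the corepressor that brings SETDB1 to its targets, had the opposite pattern. Its guides averaged 38.5 and 38.9 CPM in the library, 17.2 and 16.1 CPM in parental samples and 40.008 and 39.5 CPM in SETD2-mutant samples. The parental samples were the low ones, while the SETD2-mutant samples lay slightly above the library on this scale. The log2 changes from library were −1.23 and −1.35 in parental samples and −0.13 in each SETD2-mutant sample. TRIM28 was depleted in parental cells by −1.29 (SE 0.143, 10 of 10 guides down, adjusted p = 1.83e-08 by edgeR and RRA) and was not called in SETD2-mutant cells, at −0.13 (SE 0.185). Between the lines it rose by 1.16 (SE 0.120) with an adjusted p of 2.93e-13, rank 4 of 7090 by the p for enrichment.

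The TRIM28 guides had the lowest SD over guides of the members between the lines, at 0.380, followed by SUV39H2 (0.411) and CBX5 (0.465). SETDB1 (0.750) and ATF7IP (0.768) had the highest. TRIM28 guides also had more library CPM, 38.5 and 38.9, than SETDB1 guides (13.3 and 12.6) or ATF7IP guides (12.7 and 12.6). Whether this affected the spread was not tested. All 10 guides were called up by edgeR for single guides, and all 10 had both SETD2-mutant samples above both parental samples. The latter was so for 29.4% of all guides, and 29.8% lay below. The lowest guide changed by 0.71 and the highest by 1.99. That highest guide, HZD_EPI_07424, had 2166 and 2002 counts in the library, 848 and 765 in parental samples and 2251 and 3019 in SETD2-mutant samples. The next, HZD_EPI_07427, went from 699 and 551 in parental to 1296 and 1839 in SETD2-mutant samples. The 2 lowest, HZD_EPI_07431 with 475 and 402 against 531 and 643 and HZD_EPI_07430 with 716 and 618 against 900 and 1082, were also higher in the SETD2-mutant samples. In SETD2-mutant cells, 6 of 10 TRIM28 guides were above their library level and 4 were below, down to −1.17.

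**Figure D2:**
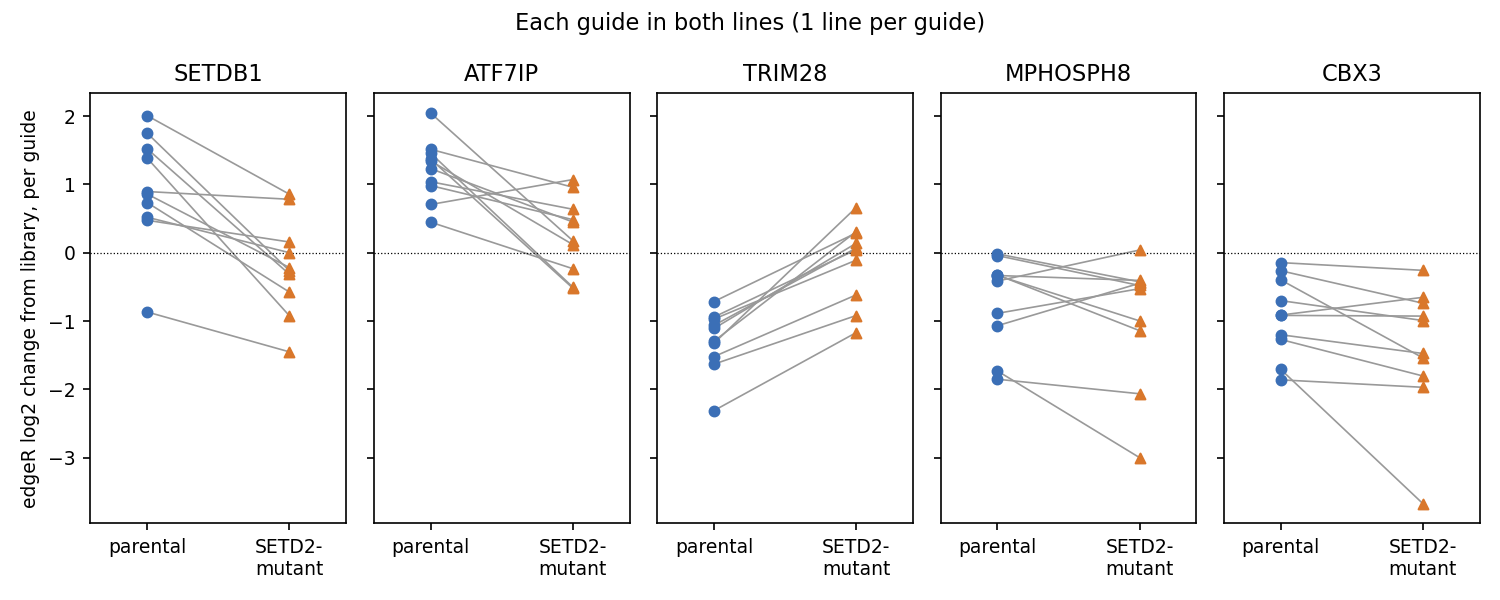
The edgeR log2 change from library (y axis) of each of the 10 guides of SETDB1, ATF7IP, TRIM28, MPHOSPH8 and CBX3 in parental cells (circles) and SETD2-mutant cells (triangles), with a line joining the values of 1 guide. All 10 TRIM28 lines rise from parental to SETD2-mutant, all 10 SETDB1 lines and 9 of 10 ATF7IP lines fall, and MPHOSPH8 and CBX3 each hold guides far below the rest.

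The calls of SETDB1, ATF7IP and TRIM28 between the lines kept their direction and their call under all 19 alternative settings. SETDB1 ranged from −1.27 to −0.97, ATF7IP from −1.10 to −0.89 and TRIM28 from 1.01 to 1.26. When changes in SETD2-mutant cells were multiplied by 0.881, so that ribosomal protein genes dropped out equally in both lines, the values were −1.05, −0.97 and 1.17. Genes within 5 Mb of each of the 3 genes had median changes between the lines of −0.09 near SETDB1 (61 genes), 0.01 near ATF7IP (55) and 0.02 near TRIM28 (53). Of these neighbours 1, 0 and 2 were called between the lines, where 1.28% of all genes were depleted and 1.03% enriched. Against library the medians in parental and SETD2-mutant cells were −0.23 and −0.41 near SETDB1, 0.06 and 0.05 near ATF7IP, and 0.10 and 0.17 near TRIM28.

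The direction of each gene against the library depends on what the samples are scaled to. With TMM, a change is relative to the bulk of genes. The 100 guides labelled dummyguide, whose meaning the sources used here do not state, had a median log2 change from library of 0.65 and 0.74 in parental samples and 0.88 and 0.92 in SETD2-mutant samples. Scaling on their counts moved the median of all genes by −0.78 in parental against library, by −0.92 in SETD2-mutant against library and by −0.15 between the lines. On that scale SETDB1 stood at 0.15 in parental and −1.12 in SETD2-mutant cells, ATF7IP at 0.44 and −0.66, and TRIM28 at −2.07 and −1.05. The ATF7IP change in SETD2-mutant cells thus turned from above to below 0. RRA ranks guides against each other, and SETDB1 and ATF7IP kept their parental call of enriched with this scaling (adjusted p = 0.0128 and 5.07e-06 by edgeR and RRA).

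**Figure D3:**
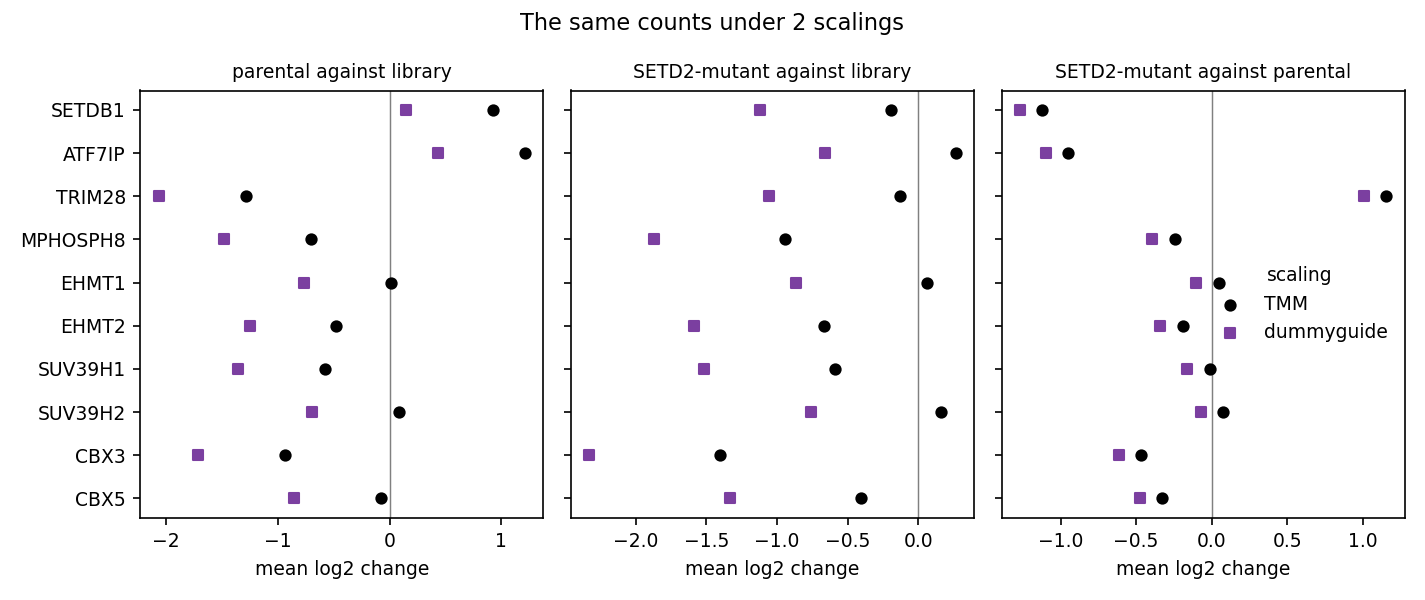
Mean log2 change (x axis) of the 10 genes (rows) in each of the 3 comparisons, with samples scaled by TMM (circles) or on the dummyguide counts (squares). The shift of the squares from the circles has a median over all genes of −0.78 (parental against library), −0.92 (SETD2-mutant against library) and −0.15 (between the lines), and in the last SETDB1, ATF7IP and TRIM28 stay apart from the other genes.

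Of the 10 members, 2 were depleted in parental cells against library (TRIM28 and CBX3) and 2 were enriched (SETDB1 and ATF7IP), where 9.90% and 1.11% of all genes were called. In SETD2-mutant cells against library, 2 were depleted (MPHOSPH8 and CBX3) and 0 enriched, where 9.04% and 1.11% of all genes were called. The count of 0 came from edgeR with RRA and was also 0 at an unadjusted p under 0.05. Limma on gene means and edgeR on summed counts both called ATF7IP (adjusted p = 0.00357 and 0.00676) and SUV39H2 (0.0156 and 0.00425) enriched there. Both also called SETDB1 depleted (0.0291 and 0.0335), and limma on gene means called TRIM28 depleted (0.0328), at the small changes given above. The comparisons with the library share the library samples and are not independent of each other. The comparison between the lines uses the same cell samples as these, so its calls are not independent of theirs either.

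MPHOSPH8 (chromosome 13, 19633659 to 19673441), the HUSH reader of H3K9 methylation, averaged 19.0 and 19.3 CPM per guide in the library, 11.9 and 12.0 CPM in parental and 10.8 and 11.3 CPM in SETD2-mutant samples. Both lines lay below the library and close to each other. The log2 changes from library were −0.66 and −0.75 in parental and −0.99 and −0.91 in SETD2-mutant samples. In SETD2-mutant cells the depletion of MPHOSPH8 was called by edgeR and RRA, at −0.94 (SE 0.292, adjusted p = 0.0294). In parental cells MPHOSPH8 was not called by that test, at −0.70 (SE 0.210, adjusted p = 0.102), while limma on gene means (1.20e-05) and edgeR on summed counts (1.78e-06) called it depleted there too. Between the lines the change was −0.24 (SE 0.190) and was not called, while limma on gene means did call it (adjusted p = 0.0130). The SETD2-mutant call was lost under 7 of 17 alternatives. Among them were leaving out library replicate 2 (adjusted p = 0.323), parental replicate 2 (0.136), SETD2-mutant replicate 1 (0.533) or SETD2-mutant replicate 2 (0.164) and the replicate block (0.143).

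A few guides carried much of the MPHOSPH8 change. All 10 guides were below their library level in parental cells, but the median guide stood at −0.37 while HZD_EPI_04348 stood at −1.85 and HZD_EPI_04350 at −1.73. In SETD2-mutant cells HZD_EPI_04350 reached −3.00, with 68 and 95 counts from 857 and 774 in the library, and the median guide stood at −0.50. FAM208A (TASOR), the scaffold of HUSH, had 10.1 CPM per guide in each library sample, 8.80 and 9.59 CPM in parental and 7.51 and 7.37 CPM in SETD2-mutant samples. Its change was −0.23 (SE 0.163) in parental cells, −0.68 (SE 0.260) in SETD2-mutant cells and −0.45 (SE 0.168, 9 of 10 guides down) between the lines. FAM208A was called in none of the 3 comparisons by edgeR and RRA, while limma on gene means and edgeR on summed counts called it depleted between the lines (adjusted p = 0.00634 and 0.00826) and in SETD2-mutant cells (0.000218 and 0.00016), and summed counts also in parental cells (0.0153). The HUSH subunit PPHLN1 and the associated MORC2 were not analysed here.

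CBX3 (chromosome 7, 26201443 to 26213607), the HP1 gamma reader, had 17.6 and 17.9 CPM per guide in the library, 8.52 and 10.007 CPM in parental and 6.75 and 7.94 CPM in SETD2-mutant samples. Both lines were low against the library, and the SETD2-mutant samples lay below the parental ones. Its log2 changes from library were −1.11 and −0.79 in parental and −1.56 and −1.33 in SETD2-mutant samples. CBX3 was depleted in both lines, by −0.94 (SE 0.184, edgeR and RRA adjusted p = 0.0453) in parental and by −1.40 (SE 0.305, adjusted p = 0.0207) in SETD2-mutant cells, with 10 of 10 guides down in each. Between the lines the change was −0.47 (SE 0.204) and was not called, and it was called from gene means by limma (adjusted p = 0.00912) and from counts summed per gene by edgeR (0.0272). The parental adjusted p lay close to the threshold and rose to 0.471, 0.0832, 0.0610 and 0.0574 without parental replicate 1, parental replicate 2, SETD2-mutant replicate 1 and SETD2-mutant replicate 2. The SETD2-mutant call was lost without SETD2-mutant replicate 1 (adjusted p = 0.0843). With a rank share limit of 0.1 in RRA, CBX3 lost its call in both lines. With dummyguide scaling, where the median of all genes lies below library, CBX3 was called in neither line by edgeR and RRA, although its changes were −1.71 and −2.33.

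The CBX3 guide HZD_EPI_00937 stood lowest in SETD2-mutant cells, at 52 and 71 counts from 1013 and 952 in the library, a change of −3.67, and stood at −1.71 in parental cells. The guide HZD_EPI_00931 hardly moved, at −0.15 in parental and −0.26 in SETD2-mutant cells. CBX5 (chromosome 12, 54230942 to 54280122), the HP1 alpha reader, was not called in any comparison by edgeR and RRA, and between the lines limma on gene means (adjusted p = 0.00879) and edgeR on summed counts (0.0164) called it depleted. These 2 tests also called it depleted in SETD2-mutant cells (0.00106 and 0.000588), and summed counts in parental cells (0.0473). It had log2 changes from library of −0.18 and 0.00 in parental and −0.34 and −0.50 in SETD2-mutant samples, with a fitted change of −0.33 (SE 0.147, 6 of 10 guides down) between the lines. Its guides spread from −1.08 to 0.52 in parental and from −1.83 to 0.53 in SETD2-mutant cells. CBX1 (HP1 beta), the remaining member of the HP1 family, stood at −0.14 (SE 0.211) in parental and −0.28 (SE 0.279) in SETD2-mutant cells and was not called by edgeR and RRA. Limma on gene means and edgeR on summed counts called CBX1 depleted in parental (adjusted p = 0.0451 and 0.0273) and in SETD2-mutant cells (0.00157 and 0.0121). In the order of their changes in SETD2-mutant cells, CBX3 was therefore below CBX5 and CBX1, while CBX5 and CBX1 differed by less than the SE of either.

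The euchromatic pair EHMT1 and EHMT2 was not called in any of the 3 comparisons by edgeR and RRA. EHMT1 (chromosome 9, 137619005 to 137836127) lay near its library level in the cell samples, with 13.4 and 13.7 CPM per guide in the library, 14.3 and 14.96 CPM in parental and 14.04 and 15.3 CPM in SETD2-mutant samples. EHMT1 stood at 0.01 (SE 0.132) against library in the parental line and at 0.06 (SE 0.141) in the other on the TMM scale, and at −0.76 and −0.87 with dummyguide scaling. EHMT2 (chromosome 6, 31879759 to 31897698), the other subunit of the heterodimer, had 18.1 and 17.6 CPM in the library, 13.8 and 13.0 CPM in parental and 13.2 and 13.3 CPM in SETD2-mutant samples, and its change was −0.47 (SE 0.239) and −0.67 (SE 0.410). Limma on gene means and edgeR on summed counts called EHMT2 depleted in parental (adjusted p = 0.000404 and 4.02e-05) and in SETD2-mutant cells (4.28e-05 and 3.38e-05). Its guides did not act alike: HZD_EPI_01791 went from 1187 and 1152 counts in the library to 296 and 181 in parental and 49 and 64 in SETD2-mutant samples, a change of −2.26 and −4.05, while the other 9 guides lay between −0.68 and 0.52 in parental cells.

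The heterochromatic pair was not called either by edgeR and RRA. SUV39H1 (chromosome X, 48695554 to 48709016) had 14.5 and 14.3 CPM per guide in the library, 8.88 and 9.57 CPM in parental and 8.97 and 9.32 CPM in SETD2-mutant samples, so the lines overlapped below the library. Its change was −0.58 (SE 0.249) in parental, −0.59 (SE 0.314) in SETD2-mutant cells and −0.01 (SE 0.181) between the lines. SUV39H1 was called depleted against library in parental and SETD2-mutant cells by limma on gene means (adjusted p = 0.000198 and 0.000189) and by edgeR on summed counts (1.15e-05 and 1.13e-05). The value between the lines had no stable sign, with a range from −0.16 to 0.13 over 19 alternatives. SUV39H1 guides were split, with HZD_EPI_06861 at −2.07 in parental and −2.58 in SETD2-mutant cells while HZD_EPI_06860 stood at 0.31 and 0.33. The counts of HZD_EPI_06863 were 85 in 1 parental sample and 308 in the other, from 148 and 175 in the library. SUV39H2 (chromosome 10, 14878866 to 14904315) had 17.3 and 17.4 CPM in the library, 19.6 and 20.5 CPM in parental and 21.1 and 21.3 CPM in SETD2-mutant samples. SUV39H2 stood at 0.08 (SE 0.186) against library in the parental line and at 0.16 (SE 0.167) in the other on the TMM scale, and at −0.69 and −0.76 with dummyguide scaling.

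**Figure D4:**
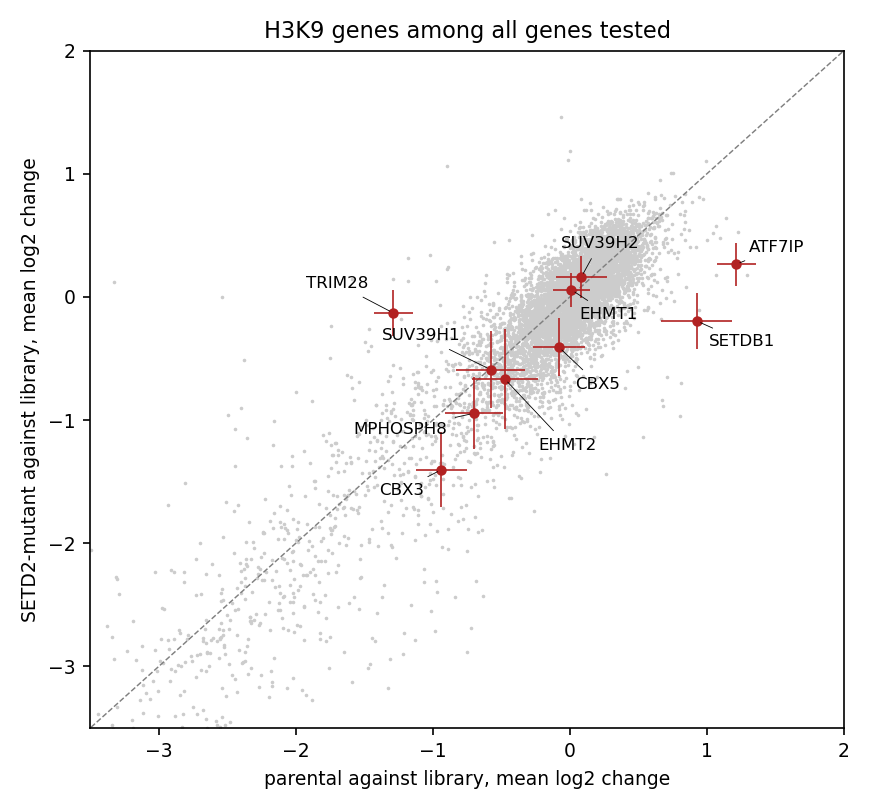
Mean log2 change over guides in parental cells (x axis) and SETD2-mutant cells (y axis), each against library, for all genes tested (grey) and the 10 H3K9 genes (red, bars are SE over guides), with the line of equal change dashed. Genes below −3.5 or above 2 on either axis lie outside the frame, SETDB1 and ATF7IP lie to the right of most grey points, TRIM28 lies above the dashed line, and the other 7 genes lie near it.

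Whether the samples of the lines overlapped says little by itself here. Over the mean log2 changes per sample, 6 of 10 members had both SETD2-mutant samples below both parental samples (SETDB1, ATF7IP, MPHOSPH8, EHMT2, CBX3 and CBX5), 2 had them above (TRIM28 and SUV39H2) and 2 overlapped. Among all genes the shares were 38.8% below and 26.9% above. The median change of the 10 members was −0.22 between the lines, against −0.04 for all 7090 genes, with 7 members below 0 and 3 above. Against library the members had medians of −0.28 (parental) and −0.30 (SETD2-mutant), and all genes had −0.01 and −0.05.

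Among the further genes listed for the pathway, values of 31 are given. Between the lines, 1 of the 31 was depleted and 0 enriched by edgeR and RRA (6 and 3 at an unadjusted p under 0.05), and their median change was −0.14. Against library, 8 were depleted in parental and 7 in SETD2-mutant cells, and 0 were enriched in either (2 and 3 at an unadjusted p under 0.05). Among all genes, 9.90% and 9.04% were depleted and 1.11% were enriched in each comparison with library, and 1.28% and 1.03% were depleted and enriched between the lines. These shares are at an adjusted p under 0.05. Shares of all genes at an unadjusted p under 0.05 are not given, so the counts at that threshold have no background here. All 4 other H3K9 writers measured (SETDB2, PRDM2, MECOM and PRDM16) were not called in any comparison by edgeR and RRA, with changes between the lines from −0.24 to 0.27. All 10 H3K9 demethylases measured were likewise not called in any comparison. Between the lines they had a median of 0.04 and a range from −0.58 to 0.41. There 3 had an unadjusted p under 0.05 for depletion and 2 for enrichment by edgeR and RRA. Such a p can rest on a few guides or on most of them. KDM4D, 1 of the 3, stood at −0.02 with 7 of 10 guides up, and PHF2, 1 of the 2, stood at 0.02. The others for depletion were PHF8, at −0.58 with 9 of 10 guides down, and KDM3A, at −0.41 with 6 of 10 down. KDM4C, the other for enrichment, stood at 0.41 (SE 0.072) with 9 of 10 guides up. Its adjusted p of 0.0528 by edgeR and RRA lay just above the threshold. CDYL, a partner of the EHMT1 and EHMT2 complex, stood at −0.13 and was not called.

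The depleted gene was PIAS1, an E3 ligase that attaches SUMO, a small protein modifier through which TRIM28 engages SETDB1. PIAS1 had 23.0 and 22.6 CPM per guide in the library, 14.3 and 14.01 CPM in parental and 7.69 and 7.87 CPM in SETD2-mutant samples. The SETD2-mutant samples were the low ones and did not overlap with the parental ones. It was depleted against library by −0.87 (SE 0.194, adjusted p = 0.0382) in parental and −1.76 (SE 0.237, adjusted p = 3.15e-05) in SETD2-mutant cells, and by −0.89 (SE 0.205, 10 of 10 guides down, adjusted p = 0.0251 by edgeR and RRA) between them. PIAS1 lost its call between the lines without parental replicate 1 (adjusted p = 0.0910), SETD2-mutant replicate 1 (0.0589) or SETD2-mutant replicate 2 (0.0847), and with ribosomal dropout set equal (−0.69, 0.468). Its parental call was lost without the same samples (0.0813, 0.0828 and 0.0812), with dummyguide scaling (−1.65, 0.0617) and with a rank share limit of 0.1 (0.764). The SUMO-activating enzyme subunits SAE1 and UBA2 were depleted in both lines, by −2.37 and −2.04 in parental and −2.46 and −2.34 in SETD2-mutant cells, and were not called between them by edgeR and RRA, at −0.08 and −0.30, while limma on gene means called UBA2 depleted there (adjusted p = 0.00809). PIAS4 and SENP1, also of the SUMO pathway, were not called in any comparison.

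Among 9 silencing partners, 5 were depleted in parental cells, 4 in SETD2-mutant cells and 0 were called between the lines by edgeR and RRA. Between the lines, 2 had an unadjusted p under 0.05 for depletion (DNMT1 and ADNP) and 1 for enrichment (MORC3) in that test. These counts have no share of all genes at that threshold beside them. Of all genes, 9.90% and 9.04% were depleted against library in parental and SETD2-mutant cells, at an adjusted p under 0.05. The histone H3.3 chaperone DAXX stood at −2.33 in parental and −2.13 in SETD2-mutant cells, its partner ATRX at −1.26 and −1.12, and the maintenance DNA methyltransferase DNMT1 at −1.14 and −1.72. The chromatin assembly factor subunit CHAF1A stood at −1.48 and −1.53. CHAF1B, the other subunit, stood at −1.95 in parental cells and at −2.26 in SETD2-mutant cells, where it was not called (adjusted p = 0.0798 by edgeR and RRA). Limma on gene means (3.40e-07), edgeR on summed counts (1.01e-06), and edgeR and RRA without parental replicate 2 (0.0456) or SETD2-mutant replicate 1 (0.0409) called CHAF1B depleted there. Between the lines, limma on gene means called DNMT1 depleted (−0.59, adjusted p = 0.00149) and ATRX enriched (0.14, 0.0214). Summed counts called DNMT1 depleted (−0.25, 0.00371) and DAXX (0.35, 0.00814) and CHAF1B (0.40, 0.00285) enriched, whereas the mean over guides of CHAF1B was −0.31. With dummyguide scaling ATRX stood at −0.010. ADNP, MORC3, TRIM24 and TRIM33 were not called in any comparison by edgeR and RRA.

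The genes nearest to SETDB1, ATF7IP and TRIM28 over the mean log2 changes of the 4 cell samples were found by Euclidean distance, leaving out the genes listed above. Nearest to SETDB1 were the H3K79 methyltransferase DOT1L at a distance of 0.202, SLC25A25 at 0.314 and SLFN11 at 0.390, while ATF7IP lay at 0.833. DOT1L had values of 0.93 and 0.92 in the parental and −0.19 and −0.05 in the SETD2-mutant samples. Nearest to ATF7IP were INPP4A at 0.280, COX7A2L at 0.282 and the corepressor scaffold SIN3B at 0.287. Nearest to TRIM28 were TAF5L, a subunit of SAGA, at 0.180, the cyclin-dependent kinase CDK4 at 0.313 and the Mediator subunit MED1 at 0.372. TAF5L had values of −1.09 and −1.41 in the parental and −0.23 and −0.16 in the SETD2-mutant samples. TRIM28 lay at 3.05 from SETDB1 and at 3.57 from ATF7IP. Distances over 4 samples from 2 infected populations describe likeness in these samples only.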

How the data were processed

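The authors deposited raw counts per guide, whole numbers with no scaling, for 71626 guides in 6 samples. All columns were assigned to samples by name. MAGeCK and hg38 are named in the submitters' processing notes with no role or version. The members and gene lists were chosen with earlier results of these data known. The 100 dummyguide guides, at 0.107% to 0.202% of counts, name no gene and stayed out of library sizes and tests. Guides whose library counts averaged under 30 were set aside (56), which left 71470. Counts were scaled by TMM and fitted by group over all 6 samples in edgeR 4.0.16 (R 4.3.3, glmQLFit robust, glmQLFTest). The spread of a guide was thus estimated over library and cell samples together, although library replicates differed less than replicates of the lines. Genes with 3 or more guides were tested by RRA with a rank share limit of 0.25. MAGeCK was not run, and the RRA p was computed exactly for uniform ranks. p-values were adjusted by Benjamini-Hochberg over 7090 genes in each direction. Change per sample used log2 CPM with a prior count of 2. Alternatives used DESeq2 1.42.0, limma 3.58.1, other scalings and filters, and each sample left out in turn. The rule for named genes took the members, further pathway genes called in any comparison, HUSH genes, CBX1, and the 3 nearest genes to SETDB1, ATF7IP and TRIM28. For these 3 genes the 2 lowest and 2 highest guides were shown. Other guides, and other pathway genes not called, were named after their values were seen. The tests were checked on simulated counts. Gene coordinates are RefSeq's on GRCh38.p14. Same-numbered replicates did not deviate together (r = −0.0027 over genes between the lines). A gene of the pathway is not reported here.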

Additional observations from a re-analysis of the deposited data

Results flagged for a closer look

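The change from library differed between SETD2-mutant and parental cells, by the direct test of 1 line against the other, for 4 genes described here. The values between the lines were −1.12 for SETDB1, −0.95 for ATF7IP, 1.16 for TRIM28 and −0.89 for PIAS1.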

How the results depend on the processing

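Over 17 alternatives for each comparison with library and 19 between the lines, 962 values for single genes kept direction and call, 26 lost their call, 43 gained one and 29 changed sign; the calls of SETDB1, ATF7IP and TRIM28 between the lines held in 57 of 57 values. With tests on gene means (limma) or summed counts (edgeR), members depleted numbered 5 and 4 between the lines, 5 and 6 in parental and 7 and 6 in SETD2-mutant cells against library, where 2 and 2 were enriched. All genes depleted and enriched then numbered 1745 and 1042 or 1503 and 1417 between the lines, 2277 and 1825 or 2149 and 2092 in parental, and 2770 and 1815 or 2320 and 2138 in SETD2-mutant cells. These settings test samples without asking whether guides of a gene agree. With dummyguide scaling 1 member was depleted in each line and 35 of all genes were enriched in SETD2-mutant cells. With a rank share limit of 0.1, 1 member was depleted in parental and 0 in SETD2-mutant cells, and with limma per guide 1 was in SETD2-mutant cells. With ribosomal dropout set equal 47 genes were depleted between the lines. The replicate block left 1 member depleted in SETD2-mutant cells (MPHOSPH8 lost its call) and changed no other call of a member; the numbers are not known to pair samples. Leaving out 1 sample gave 2 to 2 members depleted and 1 to 1 enriched between the lines, 1 to 2 and 1 to 2 in parental, and 0 to 2 and 0 to 0 in SETD2-mutant cells, with 63 to 89 and 68 to 81, 668 to 699 and 73 to 90, and 589 to 642 and 50 to 85 of all genes.

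Values that changed sign between the lines were SUV39H1 at 0.0021 (total counts), 0.015 (limma per guide and on gene means), 0.0093 (replicate block) and 0.086 (equal ribosomal dropout); EHMT1 at −0.10, SUV39H2 at −0.070 and ATRX at −0.010 (dummyguide scaling); CHAF1B at 0.40 (summed counts); and CHAF1B at 0.11, CHAF1A at 0.11 and SAE1 at 0.27 (equal ribosomal dropout). Against library, parental EHMT1 was −0.014 (total counts), −0.76 (dummyguide) and −0.00021 (limma per guide and on gene means), and parental SUV39H2 was −0.69 (dummyguide). In SETD2-mutant cells ATF7IP was −0.66, EHMT1 −0.87 and SUV39H2 −0.76 (dummyguide). With 1 sample left out, values ranged between the lines from −0.017 to 0.080 for EHMT1, −0.080 to 0.13 for SUV39H1, −0.14 to 0.071 for SAE1 and −0.22 to 0.041 for CHAF1A; in parental cells from −0.022 to 0.030 for EHMT1 and −0.19 to 0.0037 for CBX5; and in SETD2-mutant cells from −0.0045 to 0.089 for EHMT1. The cause was not tested.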
